A study of Homo sapiens with 4 samples.

Results

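The genes described here were the 8 members of the coiled-coil-helix-coiled-coil-helix domain (CHCHD) family, namely CHCHD1, CHCHD2, CHCHD3, CHCHD4, CHCHD5, CHCHD6, CHCHD7 and CHCHD10. They were taken by symbol from a table of 60671 genes, and each symbol matched exactly 1 row. One of them, CHCHD2, is a transcript that the study also followed by RT-qPCR. RNA carrying a poly(A) tail was sequenced in 4 libraries of H9, an established human embryonic stem cell line grown in mTeSR medium, with 2 libraries in each of 2 groups. The control libraries came from H9 cells whose genotype is given as control. The other libraries carried the genotype CFIm25 KO+ 3Flag-CFIm25 overexpression, called KO+OE here, in which the edited CFIm25 gene was joined by a lentiviral, Flag-tagged copy. In the study the edit left a low amount of a shortened protein, and the tagged copy was put back into 1 mutant clone from a vector with an EF1 promoter. The labels do not say whether replicates were separate cultures, so p-values measure only the spread between these libraries. Part of that spread is estimated from the other genes tested. For CHCHD2 the study also displayed sequencing tracks of empty-vector and mutant cells, in a figure cited for genes lowered in the mutant. Mutant cells without the tagged copy were not analysed here. The comparison therefore asked how far the family stood from its control level once CFIm25 had been re-expressed.

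CHCHD proteins are small, are encoded in the nucleus and mostly work in mitochondria. They carry paired cysteine motifs, and most enter the space between both mitochondrial membranes by an oxidative route in which CHCHD4, also named MIA40, catches the incoming protein and helps to form its disulfide bonds. CHCHD2 and its paralog CHCHD10 bear on respiration and on the shape of the inner membrane, and variants of them are known from Parkinson disease and from amyotrophic lateral sclerosis. CHCHD3 (MIC19) and CHCHD6 (MIC25) belong to MICOS, the complex that holds the necks of the cristae. CHCHD1 is a protein of the small subunit of the mitochondrial ribosome, and CHCHD7 is the human relative of the yeast factor COX23 for cytochrome c oxidase assembly. The role of CHCHD5 is less well known.

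The members lie apart in the genome. In RefSeq positions on GRCh38.p14, a patch of the build that the submitters' processing notes name as hg38, CHCHD2 spans chr7:56101573-56106476 on the minus strand and CHCHD10 spans chr22:23765834-23767972 on the minus strand. CHCHD3 lies at chr7:132784870-133082090 on the minus strand, CHCHD6 at chr3:126704240-126960420 on the plus strand and CHCHD4 at chr3:14112077-14124870 on the minus strand. CHCHD1 lies at chr10:73782048-73783652 and CHCHD5 at chr2:112584447-112589040, both on the plus strand. CHCHD3 and CHCHD6 spread over 297221 and 256181 bases, whereas CHCHD1 takes 1605 bases and CHCHD10 takes 2139.

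The 250 bases before the annotated start were searched on both strands for 7 short motifs in 7 members, CHCHD5 having 3 overlapping windows. The stretches below are those of CHCHD2 and its paralog, of the MICOS pair and of CHCHD4. They are shown because these genes are compared by level further on. Matches to another of the motifs, RBPJ, before CHCHD3 and CHCHD4 are left out of the list and named after it. Each is 30 bases of RefSeq sequence on GRCh38.p14, written 5′ to 3′ on the strand of the gene, with the motif in capitals.
CHCHD2, chr7:56106647-56106676, ETS: aaccacaggaaCTTCCGGgttttaaagatc
CHCHD2, chr7:56106477-56106506, ETS: cagccccgcctcccatCTTCCGGtctcctc
CHCHD2, chr7:56106567-56106596, CCAAT box: cgtcctgctcttCCAATgaacttcaggcct
CHCHD10, chr22:23767973-23768002, SP1: gtgttcctgaggccCCGCCCggggccccgc
CHCHD3, chr7:133082173-133082202, CCAAT box: gggtcgggtgaaCCAATccgggcgccctcg
CHCHD6, chr3:126704178-126704207, CCAAT box: ctctggcgtcggCCAATaggacgtggcttt
CHCHD6, chr3:126704155-126704184, CCAAT box: cagcgccacccgATTGGtgaagcctctggc
CHCHD4, chr3:14125004-14125033, NRF1: ccagtgtttcTGCGCATGCgcgcggcgaga

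CHCHD2 held the ETS letters (CCGGAAG, here as the reverse complement) at 189 and 14 bases before its start, and CHCHD10 held none. Of the members searched, 2 held these letters (CHCHD2 and CHCHD5), in 2 of the 9 windows of the members, against 8.52% of all 35116 promoter windows. CCAAT occurred in 4 members, CHCHD2, CHCHD3, CHCHD5 and CHCHD6 (4 of 9 windows), and in 32% of all windows. The SP1 letters GGGCGG occurred in CHCHD5 and CHCHD10 (4 of 9 windows) and in 42.6% of all windows. The NRF1 letters TGCGCATGC occurred in CHCHD4 alone of these members (1 of 9 windows) and in 1.30% of all windows. RBPJ letters (TGGGAA) were found before CHCHD3, CHCHD4 and CHCHD5 (3 of 9 windows), and in 20.8% of all windows. The TATA box (TATAAA) and the YY1 letters (AAGATGGCG) were found in none of the 7 members, against 10.7% and 0.652% of all windows. The windows of the 7 members had a GC content of 55.6% to 70.4% and between 15 and 25 CpG sites, beside medians of 58.0% and 11 over all windows. These matches describe letters and say nothing on binding.

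Values in the deposited table were read as TPM from their column sums, because the header names no unit. TPM is a transcript abundance scaled to a common library total, which divides the reads of a gene by its transcript length. If that reading holds, levels can be set side by side between genes. No read counts were given, so depth and counting error are unknown. Of all rows, 12319 genes whose mean reached 1 TPM were tested with limma on log2(TPM + 1), and all 8 members passed this filter on the mean. The edited gene was checked first. NUDT21, which encodes CFIm25, had control values of 160.67 and 152.20 TPM and KO+OE values of 162.09 and 156.60 TPM, and the groups overlapped. The table gives 1 value per gene and does not separate RNA of the edited gene from RNA of the tagged copy. The log2 fold change of NUDT21 was 0.03 with an interval of -0.09 to 0.14. The row thus shows neither the loss nor the overexpression that the label names, and KO+OE is used below as the label of these libraries. By western blot the study reports the re-expressed CFIm25 at about the endogenous level, a measure of protein and not of this RNA. In bulk RNA, fewer cells that express a gene and less of its RNA per cell cannot be told apart. All 8 pluripotency markers of a list were present, with POU5F1 at 2163.82 TPM or more in every library and SOX2 between 18.19 and 19.36 TPM. Their summed level was 3219 to 3237 TPM in control and 3210 to 3218 TPM in KO+OE. Of 10 germ layer markers, 9 had a mean under 1 TPM and SOX17 was listed at 0 throughout. GATA6, a factor of endoderm, was the exception at 4.35 to 8.39 TPM. The summed level of the list stood at 7.03 and 9.19 TPM in the control libraries, with 5.72 and 7.97 TPM in the KO+OE libraries. Of 6 fibroblast or feeder markers, LUM was at 0 in all libraries, DCN and COL3A1 reached at most 0.08 TPM, and COL1A1, COL1A2 and THY1, the last also carried by stem cells, were expressed. Their sum read 1297 and 1420 TPM (control) and 1360 and 1412 TPM (KO+OE). Most of it was THY1, at 1228 and 1352 TPM (control) and 1291 and 1345 TPM (KO+OE).

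CHCHD6 was the most abundant transcript of the family. It had control values of 140.09 and 133.70 TPM and KO+OE values of 142.28 and 150.66 TPM, and gave 34.2% to 36.7% of the family's summed level. CHCHD10 followed with 63.38 and 58.68 TPM (control) and 67.77 and 59.21 TPM (KO+OE). CHCHD6 was 2.10 to 2.54 times the level of CHCHD10, and the ranges of both genes over the 4 libraries did not meet.

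CHCHD5 stood next, with control values of 60.74 and 53.74 TPM and KO+OE values of 45.31 and 55.98 TPM. It was below CHCHD10 in every library, but the ranges overlapped. CHCHD3 was the steadiest member. Its values were 46.82 and 47.57 TPM (control) and 46.07 and 48.73 TPM (KO+OE), a coefficient of variation of 2.40% over the 4 libraries. CHCHD5 lay above it in 3 of 4 libraries, so the order of these neighbours did not hold beyond their spread.

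CHCHD2, the transcript the study followed, stood at 40.89 and 40.34 TPM in the control libraries, with 38 and 42.71 TPM in the KO+OE libraries. The KO+OE libraries lay on both sides of the control libraries, so the groups overlapped. CHCHD3 was higher than CHCHD2 in all 4 libraries without overlap, by 1.14 to 1.21 times. CHCHD1 read 38.85 and 38.19 TPM (control) and 42.03 and 33.93 TPM (KO+OE). It was below CHCHD2 in 3 libraries and above it in KO+OE replicate 1, and their ranges overlapped.

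CHCHD4 and CHCHD7 formed the low end. The import receptor CHCHD4 had control values of 12.85 and 12.97 TPM and KO+OE values of 11.12 and 11.64 TPM. CHCHD1 stood 2.91 to 3.78 times above it. CHCHD7 stood at 5.88 and 5.24 TPM in the control libraries, with 5.98 and 7.20 TPM in the KO+OE libraries, below CHCHD4 in every library. Among all genes tested, the mean of CHCHD6 fell at the 93.7th percentile, that of CHCHD2 at the 81.2nd and that of CHCHD7 at the 44.3rd. The family's sum was between 390.4 and 410.1 TPM in every library.

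**Figure D1:**
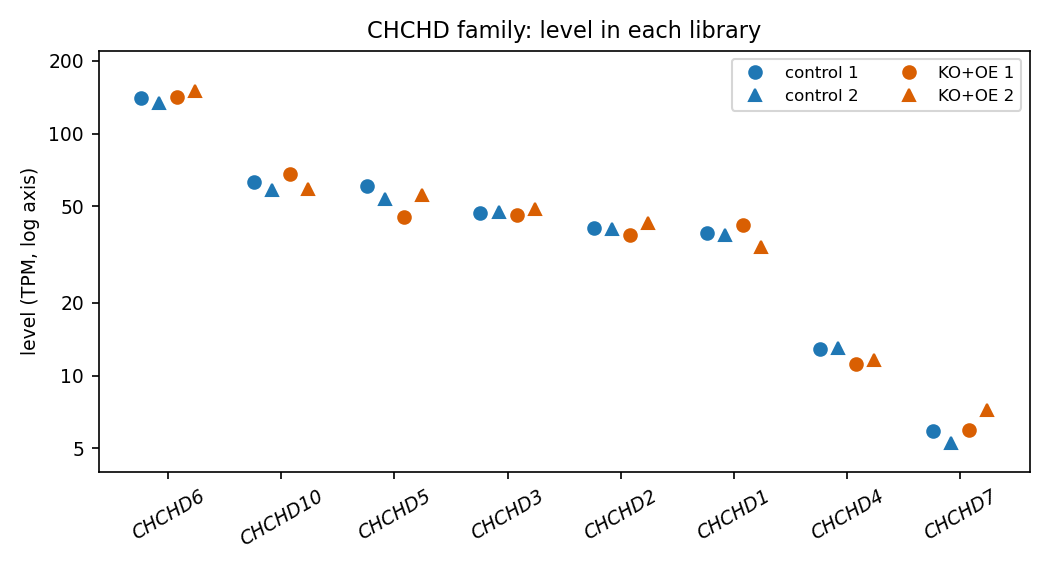
Level of each CHCHD family member in TPM (vertical log axis) in the 2 control libraries (blue) and the 2 KO+OE libraries (orange), with 1 point per library and genes ordered by their mean. CHCHD6 sits highest, at 133.7 to 150.66 TPM, CHCHD7 lowest, at 5.24 to 7.20 TPM, and the groups overlap for 5 of the 8 genes.

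The paralogs were not listed at the same level. CHCHD10 exceeded CHCHD2 in all 4 libraries, by 1.55 and 1.45 times in control and by 1.78 and 1.39 times in KO+OE. The mean ratio was 1.5 ± 0.0674 in control and 1.58 ± 0.281 in KO+OE (SD, n = 2 each), and the groups overlapped. CHCHD2 has 10 processed copies that can share its reads, and the 2 transcripts differ in GC content (52.9% for CHCHD2, 67.0% for CHCHD10). What part these had in the ratio was not tested. Of the MICOS pair, CHCHD6 exceeded CHCHD3 by 2.99 and 2.81 times in control and by 3.09 and 3.09 times in KO+OE. The mean ratio was 2.90 ± 0.128 in control and 3.09 ± 0.00239 in KO+OE (SD, n = 2 each), with both KO+OE libraries above both control libraries. An exact permutation test of 2 against 2 libraries cannot pass 0.05, and no other test of these ratios was made. These ratios were taken within a library, so a common factor for all genes of a library leaves them as they are, while quantile normalization does not.

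The canonical transcripts of the members are short. Their lengths ran from 523 bases for CHCHD5 to 1697 bases for CHCHD7, beside a median of 2740 bases for all genes tested. Their GC content ran from 40.0% for CHCHD7 to 67.0% for CHCHD10, beside a median of 51.8%. The 3 members listed highest, CHCHD6 (59.2%), CHCHD10 and CHCHD5 (61.0%), were also those with the most G and C, and the lowest, CHCHD7, had the least. CHCHD2 stood between them at 52.9%. The order was not the same throughout: CHCHD3, the fourth by level, had 46.9%, less than CHCHD4, the seventh by level, with 48.2%. What part GC content had in the listed levels was not tested.

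The groups were then compared gene by gene. Of the 8 members, 0 passed an adjusted p of 0.05 and 0 passed an unadjusted p of 0.05 in limma, while 0.00812% and 5.33% of all genes tested did so. By sign, 4 members were higher and 4 lower in KO+OE. Their median was -0.0029 on the log2 scale, beside -0.012 over all genes tested. The median took the other sign when libraries were rescaled by median ratios (0.010), without the genes of the mitochondrial genome (0.011) or by quantiles (0.0052).

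CHCHD2 averaged 40.6 ± 0.389 TPM over the control libraries and 40.4 ± 3.33 TPM over the KO+OE libraries (n = 2 each, SD). The log2 fold change was -0.01 with a standard error of 0.07 and a 95% confidence interval of -0.19 to 0.17, with an adjusted p = 0.990 from limma. As a ratio of TPM + 1 this interval ran from 0.874 to 1.13. These bounds give the range of changes that the values leave possible, and they are not a limit of detection. The sign was not fixed: the log2 fold change was 0.07 when KO+OE replicate 1 was left out, -0.09 when KO+OE replicate 2 was left out, and 0.0016 and 0.0027 under the rescalings by median ratios and without the genes of the mitochondrial genome. Its paralog CHCHD10 averaged 61.0 ± 3.32 TPM over the control libraries and 63.5 ± 6.05 TPM over the KO+OE libraries (n = 2 each, SD), a log2 fold change of 0.05 with an interval of -0.16 to 0.26. Leaving out KO+OE replicate 1 gave -0.04 and leaving out control replicate 2 gave -0.00072.

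The MICOS members had the narrowest intervals. CHCHD3 had a log2 fold change of 0.01 with an interval of -0.13 to 0.14. Leaving out KO+OE replicate 2 gave -0.03, and leaving out control replicate 1 gave -0.0056. CHCHD6 averaged 137 ± 4.52 TPM over the control libraries and 146 ± 5.93 TPM over the KO+OE libraries (n = 2 each, SD). Its log2 fold change was 0.10 with an interval of -0.03 to 0.22 and an adjusted p = 0.931 from limma. Both KO+OE libraries of CHCHD6 lay above both control libraries.

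CHCHD4 averaged 12.9 ± 0.0849 TPM over the control libraries and 11.4 ± 0.368 TPM over the KO+OE libraries (n = 2 each, SD). Both KO+OE libraries lay below both control libraries, with a log2 fold change of -0.17, an interval of -0.37 to 0.03 and an adjusted p = 0.931 from limma. CHCHD4 had the lowest unadjusted p of the family, 0.0833 from limma, which missed 0.05. CHCHD7 had the highest log2 fold change, 0.21, with the interval -0.13 to 0.55, and its KO+OE values lay above its control values by a narrow gap. Leaving out 1 library gave 0.09 (KO+OE replicate 2), 0.14 (control replicate 2), 0.28 (control replicate 1) or 0.32 (KO+OE replicate 1), and the first of these was below the values of CHCHD1 and CHCHD10 in the same fit. CHCHD5 had the lowest, -0.18, with the interval -0.48 to 0.12 and overlapping groups. Leaving out KO+OE replicate 2 gave CHCHD5 a log2 fold change of -0.33, the only member with an unadjusted p under 0.05 in that fit, and leaving out KO+OE replicate 1 gave -0.03. CHCHD1 had a log2 fold change of -0.03 with an interval of -0.30 to 0.25. Leaving out KO+OE replicate 2 turned it to 0.12, and leaving out KO+OE replicate 1 gave -0.18.

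**Figure D2:**
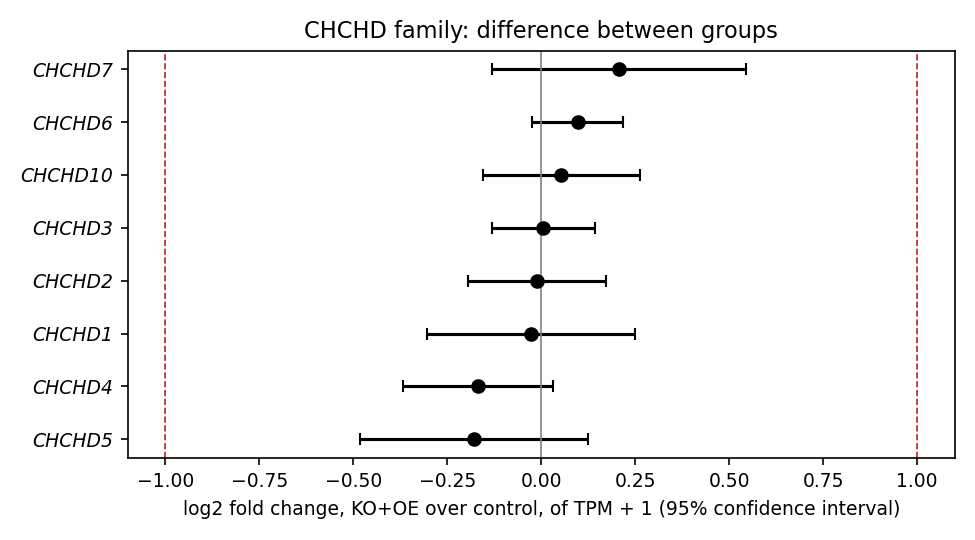
Log2 fold change of TPM + 1 between KO+OE and control (horizontal axis) for the 8 members, with limma's 95% confidence interval as bars and dashed lines at 2-fold in either direction. Every interval includes 0 and lies inside the dashed lines, from -0.48 for CHCHD5 to 0.55 for CHCHD7.

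The groups did not overlap for 3 of the 8 members, CHCHD6 and CHCHD7 with KO+OE higher and CHCHD4 with KO+OE lower. Among all genes tested 34.1% did not overlap, so the count of the family was near that of the whole table. The interval lay wholly within 2-fold for all 8 members, beside 92.6% of all genes tested. As ratios of TPM + 1, the intervals of the family ran from 0.716 for CHCHD5 to 1.46 for CHCHD7. For a gene as low as CHCHD7 a ratio of TPM + 1 is nearer to 1 than the ratio of TPM. The median size of the log2 fold change, whatever its sign, was 0.0753 for the members and 0.0820 for all genes tested. For 6 of the 8 members the gap between replicates of at least 1 group was larger than the difference between the groups, the exceptions being CHCHD4 and CHCHD6. That count was not made over all genes tested, so it is not read as a trait of the family. The KO+OE replicates lay farther apart than the control replicates for all 8 members, beside 49.6% of all genes tested, a count made after the values were seen.

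**Figure D3:**
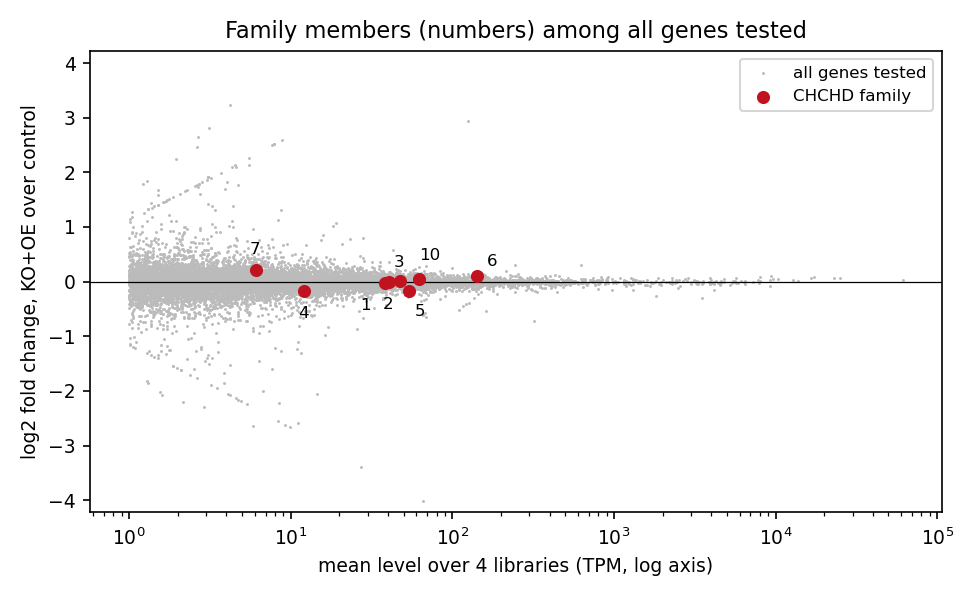
Log2 fold change between KO+OE and control (vertical axis) against the mean level over the 4 libraries in TPM (horizontal log axis) for all genes tested (grey) and the 8 members (red, labelled by their number). The members lie between -0.18 and 0.21, inside the grey cloud at their level.

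**Figure D4:**
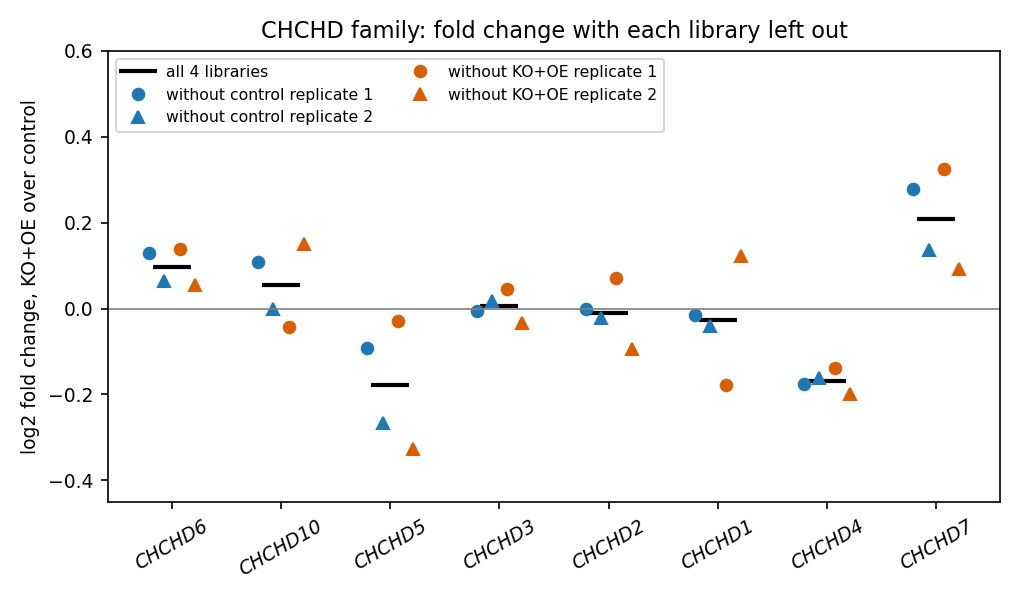
Log2 fold change of each member with all 4 libraries (black bar) and with each library left out in turn (points). The sign turns for CHCHD1, CHCHD2, CHCHD3 and CHCHD10, while CHCHD4 and CHCHD6 keep theirs, from -0.20 to -0.14 and from 0.06 to 0.14.

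Genes that work with the family were read from lists. The route by which these proteins enter mitochondria was described first, since it is the route of CHCHD4. None of its 9 other genes passed an adjusted p of 0.05 in limma, 2 passed an unadjusted p of 0.05 (5.33% of all genes tested did), and the median log2 fold change was -0.01. TIMM9 and TIMM8A, chaperones that guide proteins across the space between the membranes, were those 2. TIMM9 read 11.55 and 13.77 TPM (control) and 10.44 and 8.97 TPM (KO+OE). TIMM8A had control values of 5.10 and 4.52 TPM and KO+OE values of 3.64 and 3.59 TPM. Both were lower in KO+OE without overlap, by -0.35 and -0.33 on the log2 scale (limma, adjusted p = 0.928 for each). GFER, the oxidase that recharges CHCHD4, stood at 44.59 and 51.64 TPM in the control libraries, with 36.76 and 43.91 TPM in the KO+OE libraries. Its unadjusted p was 0.0775 from limma. In this list 4 of 9 genes did not overlap, beside 34.1% of all genes tested, and these 4 were lower in KO+OE. The highest log2 fold change was 0.07 for AIFM1, which anchors CHCHD4. The count of 2 became 0 without control replicate 2 or KO+OE replicate 1, and 1 without control replicate 1 or KO+OE replicate 2. It was also 1 with the replicate block, with no filter, with a filter at 5 TPM and with no mean-dependent prior.

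The 17 other genes with CHCH domains, mostly assembly factors and subunits of the respiratory chain, had a median of -0.0066 on the log2 scale, and by sign 7 were higher and 10 lower. None passed an adjusted p of 0.05 and 0 passed an unadjusted p of 0.05 in limma. The latter count became 1 with a pseudocount of 0.1, a filter at 5 TPM, the replicate block, or without either control replicate. The highest value was 0.23 for COX6B2, which read 1.64 and 2.90 TPM (control) and 2.81 and 2.71 TPM (KO+OE), with overlapping groups.

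Among 8 tested MICOS subunits and outer membrane partners, 0 passed either p in limma, and the median log2 fold change was 0.02. MICOS10 had the lowest value, -0.22, and MTX2, a part of the outer membrane sorting machinery, the highest, 0.25. MTX2 had control values of 7.27 and 7.53 TPM and KO+OE values of 8.42 and 9.61 TPM. Leaving out control replicate 2 or KO+OE replicate 1 moved the count past the unadjusted p from 0 to 1. IMMT, the large subunit that binds CHCHD3, was within 37.95 to 38.65 TPM in all libraries. APOOL had a mean under 1 TPM and was not tested.

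Of the genes tied to CHCHD2 and CHCHD10 as partners or targets, 11 of 13 were tested, 0 passed either p in limma and the median log2 fold change was -0.03. With no mean-dependent prior, 1 passed the unadjusted p. The values ran from -0.20 for OPA1, a fusion factor of the inner membrane, to 0.09 for SMAD4, a signal mediator of the TGF-beta pathway. COX4I2, a subunit of cytochrome c oxidase with a promoter that CHCHD2 is known to act on, stood at 0.22 and 0.34 TPM in the control libraries, with 0.72 and 0 TPM in the KO+OE libraries. The protease gene OMA1, also under 1 TPM, read 0.89 and 0.77 TPM (control) and 0.24 and 0.54 TPM (KO+OE).

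The 29 genes of the small subunit of the mitochondrial ribosome, to which CHCHD1 belongs, had a median log2 fold change of -0.01. None passed an adjusted p of 0.05 and 1 passed an unadjusted p of 0.05 in limma, which 5.33% of all genes tested did. That gene, MRPS18C, had control values of 13.19 and 16.11 TPM and KO+OE values of 10.62 and 9.03 TPM, or -0.53 on the log2 scale (limma, adjusted p = 0.928). The highest value was 0.12 for MRPS25. Leaving out KO+OE replicate 1 moved the count of 1 to 2. Groups did not overlap for 8 of these 29 genes, for 4 of the 17 with CHCH domains, for 3 of the 8 of MICOS and for 5 of the 11 partners, to be read beside the 34.1% of all genes tested.

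**Figure D5:**
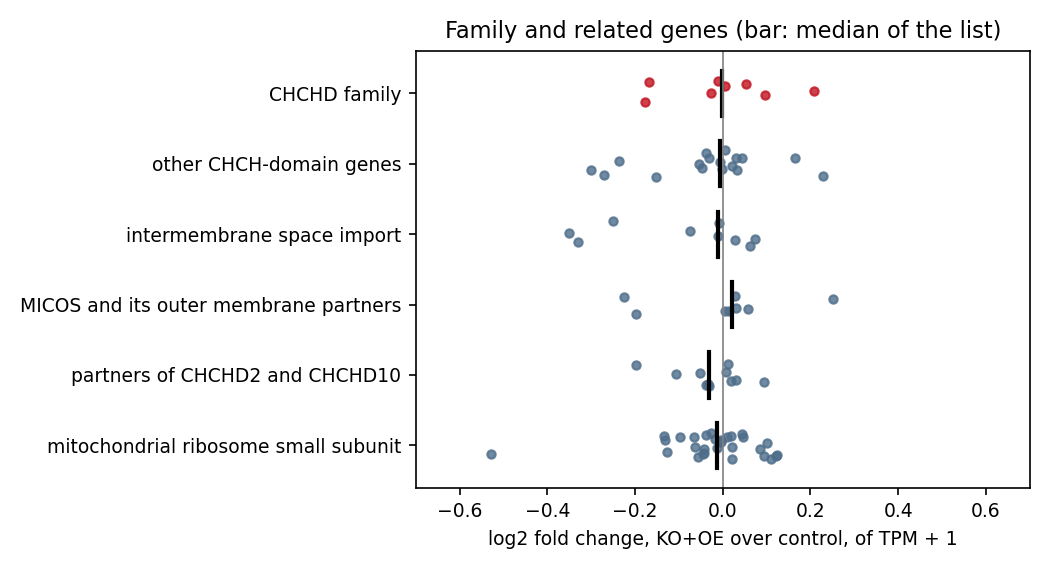
Log2 fold change of TPM + 1 between KO+OE and control (horizontal axis) for each tested gene of the CHCHD family (red) and of 5 related lists (blue), with the median of each list as a black bar and points spread vertically only for sight. All medians lie between -0.03 and 0.02, and the lowest point is MRPS18C at -0.53.

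Near copies of the members were examined because they can share reads. The table lists 17 processed copies, 10 of CHCHD2, 3 of CHCHD3 and 4 of CHCHD4, and 14 of them were at 0 in every library. CHCHD2P7 had control values of 0.44 and 0.23 TPM and was at 0 in both KO+OE libraries, CHCHD4P3 at 1.68 TPM in KO+OE replicate 1 alone, and CHCHD3P3 at 0.12 TPM in control replicate 1 alone. None had a mean of 1 TPM. How reads that fit both a gene and its copies were assigned is not given in the sources used here, so the levels of these 3 members are uncertain to that extent. C22orf15, which overlaps CHCHD10 in RefSeq, was listed at 6.86 to 8.08 TPM, and an antisense RNA, LOC101927330, overlaps CHCHD5. Whether the counting used strand is not given either, so reads of such pairs cannot be told apart.

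The genes whose levels were most like those of CHCHD2 over the 4 libraries were TFPT, TMEM97, NOC4L, CDCA8 and SDHAF2. Their Euclidean distances from CHCHD2 on log2(TPM + 1) were 0.0590 for TFPT, 0.0676 for TMEM97, 0.0748 for NOC4L, 0.0891 for CDCA8 and 0.0893 for SDHAF2. With 4 libraries and a narrow spread this likeness is mostly one of level.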

How the data were processed

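Poly(A)-selected RNA of 4 H9 libraries was measured, and sample titles gave the group and the number of each replicate. The authors deposited 1 table of genes with 1 value per library. Its header names no unit, and the deposited values are read as TPM because every column holds decimals and sums to between 986853 and 987078. The submitters' processing notes name HISAT2, featureCounts, Subread, DESeq2 and hg38; versions, the annotation and the step that gave the normalized values are not given in the sources used here. Values held no counts, so depth is unknown and a count test could not be used. Precision comes from the spread between replicates, which limma's prior takes in part from all genes tested. TPM makes each gene depend on all others: genes of the mitochondrial genome took 21.0% to 22.1% of each library.

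Values were taken as log2(TPM + 1), a scale that understates changes of low genes, and genes whose mean reached 1 TPM were tested with limma 3.58.1 in R 4.3.3 (group as the only term, mean-dependent prior, two-sided, Benjamini-Hochberg over all genes tested). Replicates were not identical: 0.658% of tested genes had equal values in the control libraries and 0.568% in the KO+OE libraries. Alternatives were no filter or one at 5 TPM, a pseudocount of 0.1 or 5, 3 other scalings, no mean-dependent prior, the replicate block and leaving out each library, where the lone library is assumed to vary like the other group. Further columns of per-sample values numbered 0. Named were the 8 members, NUDT21, members of each list with an unadjusted p under 0.05 or the extreme fold changes, copies with a mean of at least 1 TPM, and the 5 genes nearest to CHCHD2. Genes named outside this rule (GFER, IMMT, APOOL, COX4I2, OMA1, C22orf15, the copies and the markers) were chosen after their values were seen. One gene that the naming rule covers is not reported here, though it stays in the counts and median of its list. Members and lists were chosen with earlier results of these data known. Transcript length and GC content came from canonical transcripts of GENCODE release 44 by Ensembl identifier, found for 98.6% of genes tested. The version used was lifted to the genome build before GRCh38, while positions and promoters came from RefSeq on GRCh38.p14. Other steps ran in Python 3.11.15 with numpy 2.4.6 and pandas 2.3.3.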

Additional observations from a re-analysis of the deposited data

How the results depend on the processing

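Among 13 alternatives, no filter, the filter at 5 TPM, no mean-dependent prior and the replicate block cannot move a fold change, only its test. The others turned the sign of 8 fold changes, of 4 members. No member passed an adjusted p of 0.05 in limma in any alternative, the lowest being 0.865. CHCHD2 turned to 0.0016 with median-ratio rescaling and to 0.0027 when rescaled without genes of the mitochondrial genome. With each library left out in turn, the log2 fold change ran from -0.094 to 0.071 for CHCHD2, from -0.18 to 0.12 for CHCHD1, from -0.034 to 0.045 for CHCHD3, from -0.042 to 0.15 for CHCHD10 and from -0.012 to 0.066 for NUDT21. The number of members past an unadjusted p of 0.05 ran from 0 to 1, the 1 being CHCHD5 without KO+OE replicate 2. The family's median ran from -0.011 to 0.011. Of 65 list medians and 65 list counts, 12 and 17 moved; the causes were not tested. The deviations of same-numbered libraries had a correlation of -0.049 over the genes tested, which cannot show whether these libraries were handled together. In this balanced design the replicate block cannot move the -0.011 of CHCHD2. With it CHCHD2 had an adjusted p of 0.990 in limma, and 0 members passed either p. TPM without counts limits what can be said of CHCHD7, COX4I2 and the copies.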

Other observations

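The replicates of KO+OE lay farther apart than those of control for all 8 members, a pattern noticed after the values were seen and not tested. On the log2 scale the median gap between replicates of the members was 0.0455 in control and 0.178 in KO+OE. Over all genes tested the gaps were alike, with medians of 0.112 and 0.110, and the KO+OE gap was the larger for 49.6% of genes. The members did not shift together: KO+OE replicate 1 was above replicate 2 for CHCHD1 and CHCHD10 and below it for the other 6. The widest gaps were 0.301 for CHCHD1 and 0.299 for CHCHD5, with opposite signs.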
